A study of Mus musculus with 24 samples.

Results

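The B16F1-GFP-M line, a mouse melanoma line called M here, was compared with M0, a mouse line of myeloid cells, for the genes that each cell type expresses. The members were the arrays of these lines, 3 for M and 4 for M0, which makes 7 of the 24 arrays of the series, and they were taken by the cell line named in the labels. The series holds 7 lines on whole-mouse arrays that read labelled total RNA in 1 colour: the melanoma lines M, D, DB#1, DB#2 and DB#3, all derived from B16F1 and all with GFP (green fluorescent protein) in their names, and the myeloid lines M0 and J365. M is the line from which the study started, the D and DB lines are its dormant cells taken from mice given immunotherapy, and M0 and J365 are called myeloid in the labels, without being tied to a named leukemia line of the study. Neither M nor M0 has a treatment, time or animal age in its labels, the growth text speaks of the melanoma lines only, and both are lines amplified in culture, so a line stands for its cell type through a single isolate and not through a range of isolates. The titles of the M0 and J365 arrays carry the tag p20, whose meaning they do not give and which the melanoma titles lack. The labels do not say whether the arrays of a line came from separate cultures. The p-values measure the spread between arrays of the same line, pooled over all 7 lines, and this spread may be technical.

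Melanocytes are pigment cells of the neural crest. They build melanosomes, organelles related to lysosomes in which tyrosinase and its relatives make melanin, under the transcription factors MITF, SOX10 and PAX3. Myeloid cells come from the haematopoietic stem cell through factors such as PU.1, RUNX1, the GATA and the C/EBP families, carry the surface phosphatase CD45, depend on cytokine receptors and store enzymes in granules. Melanocytes grow attached to a matrix, and myeloid cells largely grow in suspension.

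A gene's value is its normalized log2 signal: the log2 of the scanner's background-corrected intensity minus the 75th percentile of that array, so that 1 unit is a 2-fold difference and values can be compared between arrays for a gene but not between genes. A probe is called read on an array where the scanning software marked it as well above background. The M arrays read between 49.3% and 52.1% of the probes and the M0 arrays between 47.4% and 52.6%, so a like share of probes was read in both lines. The 75th percentile of intensity lay between 333.9 and 418.0 on the M arrays and between 270.9 and 387.9 on the M0 arrays. Over genes read in both lines, arrays of the same line correlated with r between 0.967 and 0.991 in 9 pairs and arrays of different lines with r between 0.877 and 0.901 in 12 pairs. The lowest of the 9 was the pair of M0 replicates 4 and 1. Replicate 4, whose label carries no replicate number, correlated with replicates 2 and 3 at 0.979 and 0.986. M0 replicates 1, 2 and 3 correlated with each other between 0.976 and 0.990. D replicate 3, outside this comparison, read 89.9% of its probes. It entered through the spread that all lines share in the fit and through the choice of each gene's brightest probe. It also entered the comparison of the other melanoma lines with J365.

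The markers of both cell types went with the labels. All 8 melanocyte markers (*Tyr*, *Tyrp1*, *Dct*, *Pmel*, *Mlana*, *Slc45a2*, *Sox10* and *Mitf*) were read on every M array, and their mean level lay between 7.26 and 7.44 on the M arrays and between -4.45 and -4.12 on the M0 arrays. All 8 leukocyte markers (*Ptprc*, *Cd53*, *Laptm5*, *Coro1a*, *Vav1*, *Spi1*, *Lcp1* and *Rac2*) were read on every M0 array, with a mean level between 2.95 and 3.66 there and between -4.94 and -4.49 on the M arrays. Markers of fibroblasts were read in 2 of 8 cases in M and 0 of 8 in M0, those of epithelium in 0 of 8 in both, and those of endothelium in 1 of 8 in both (*Pecam1*). Some markers of other blood cells were read in both lines. In M0 they numbered 5 of 8 for T cells, 4 of 8 for B cells, 3 of 7 for erythroid cells, 4 of 8 for megakaryocytes, 4 of 8 for macrophages, 2 of 7 for neutrophils and 4 of 8 for mast cells or basophils. In M they numbered 4, 2, 1, 3, 3, 1 and 1, in the same order. The mean level of the mast cell markers lay between -5.60 and -5.16 on the M arrays and between -3.29 and -1.77 on the M0 arrays, that of the T cell markers between -3.50 and -3.26 and between -1.86 and -1.14, and that of the megakaryocyte markers between -4.23 and -3.87 and between -2.46 and -1.71. Their part in the differences below was not tested. Markers read on no array of either line numbered 2, 3, 3, 2, 3, 2 and 0, in the same order, among them *Cd8a*, *Cd2*, *Ms4a1*, *Alas2*, *C1qa* and *S100a8*. Others were read in both lines at unlike levels. On the log2 scale, M minus M0 ran from -6.20 to 0.12 for such T cell markers and from -5.64 to -0.34 for those of megakaryocytes. It was -5.62 for the 1 such erythroid marker.

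**Figure D1:**
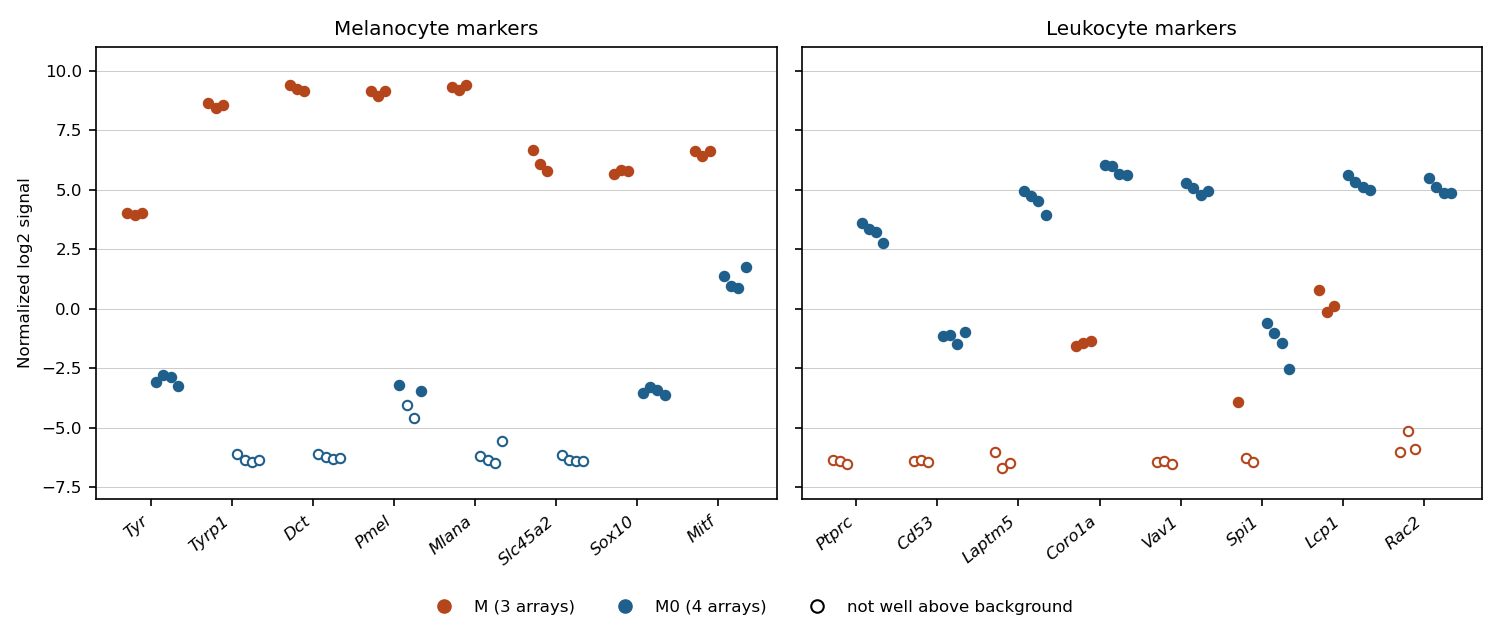
Normalized log2 signal (vertical axis) of 8 melanocyte markers and 8 leukocyte markers on each of the 3 M arrays and the 4 M0 arrays, 1 point per array, with open points where the probe was not well above background. The lines do not overlap for any of the 16 genes, and 3 melanocyte markers (*Tyr*, *Sox10* and *Mitf*) were read on all M0 arrays at a lower level.

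The promoters of 4 genes are shown, those with the largest differences among the members of the pigment list and of the blood cell lists described below whose windows hold letters that MITF and PU.1 are known to bind. The differences were ranked by measured signal. For all 4 genes the probe used was not above background in the dimmer line, so the order is not one of exact sizes. The windows run from upstream of the gene's start in RefSeq (build GRCm38.p6) to shortly past it, 5' to 3' on the strand of the gene. Capitals mark CATGTG or its reverse complement in the first pair, and GAGGAA or its reverse complement in the other pair. The windows are chr14:118052197-118052496 (minus strand) for *Dct*, chr4:80833963-80834262 (plus strand) for *Tyrp1*, chrX:7967861-7968160 (minus strand) for *Gata1* and chr17:57278850-57279149 (plus strand) for *Vav1*.
Dct: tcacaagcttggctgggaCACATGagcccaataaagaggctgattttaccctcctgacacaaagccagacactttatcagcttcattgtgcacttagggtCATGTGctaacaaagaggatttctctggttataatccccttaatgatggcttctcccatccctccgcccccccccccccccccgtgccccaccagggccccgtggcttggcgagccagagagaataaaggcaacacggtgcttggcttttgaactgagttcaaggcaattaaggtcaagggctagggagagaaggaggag
Tyrp1: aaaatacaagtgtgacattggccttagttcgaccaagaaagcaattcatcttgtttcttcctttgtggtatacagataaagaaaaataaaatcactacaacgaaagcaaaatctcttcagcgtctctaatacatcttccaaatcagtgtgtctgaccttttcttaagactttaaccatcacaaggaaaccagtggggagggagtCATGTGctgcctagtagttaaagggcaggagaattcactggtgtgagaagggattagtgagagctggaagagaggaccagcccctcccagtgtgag
Gata1: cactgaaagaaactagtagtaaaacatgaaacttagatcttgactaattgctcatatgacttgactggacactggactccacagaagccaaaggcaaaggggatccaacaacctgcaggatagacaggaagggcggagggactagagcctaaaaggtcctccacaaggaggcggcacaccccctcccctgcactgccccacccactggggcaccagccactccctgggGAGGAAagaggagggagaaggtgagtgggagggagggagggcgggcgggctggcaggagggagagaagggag
Vav1: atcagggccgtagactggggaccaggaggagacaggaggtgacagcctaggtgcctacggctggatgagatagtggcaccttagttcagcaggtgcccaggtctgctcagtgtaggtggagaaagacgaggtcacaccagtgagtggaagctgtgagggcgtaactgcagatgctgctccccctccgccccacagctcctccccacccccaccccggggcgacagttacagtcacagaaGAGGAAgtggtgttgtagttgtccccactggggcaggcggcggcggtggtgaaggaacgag
CATGTG, searched on both strands, stood in 14.2% of all 32851 promoters of the table and in 9 of 13 promoters (69.2%) of the pigment list, which belong to 8 of its 10 genes found there. GAGGAA stood in 28.3% of all promoters, in 9 of 43 promoters (20.9%) of the haematopoietic transcription factors and in 21 of 43 (48.8%) of the leukocyte signalling genes. Neither motif contains the other. A match is a run of letters and not a measured binding site.

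The levels of M and M0 were compared gene by gene. Of 22426 genes tested, which are those that all arrays of M, or all arrays of M0, read, 12683 were called at an adjusted p under 0.05 (limma, Benjamini-Hochberg), or 56.6%. These were 6009 higher in M (26.8%) and 6674 higher in M0 (29.8%), a balance that turned without scaling of the arrays, with 6331 higher in M and 5412 higher in M0. A gene read in 1 line only had to differ, so the counts below rest on the 17167 genes that all 7 arrays read. Among them 8525 were called (49.7%), 3828 higher in M (22.3%) and 4697 higher in M0 (27.4%). The arrays of the lines did not overlap for 7893 of the 8525, and for 8686 of all 17167. The counts of list members called below stand against these shares of 22.3% and 27.4%. The differences in level were moderate for most genes, with a median log2 fold change (M minus M0) of -0.13, quartiles of -0.72 and 0.47, and a median within-line SD of 0.22 in M and 0.30 in M0. Called differences of at least 2-fold numbered 2008 higher in M and 2770 higher in M0, those of at least 16-fold 135 and 175, and those of at least 64-fold 39 and 50. In cultures measured in bulk, fewer cells with a transcript and less of it per cell cannot be told apart.

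**Figure D2:**
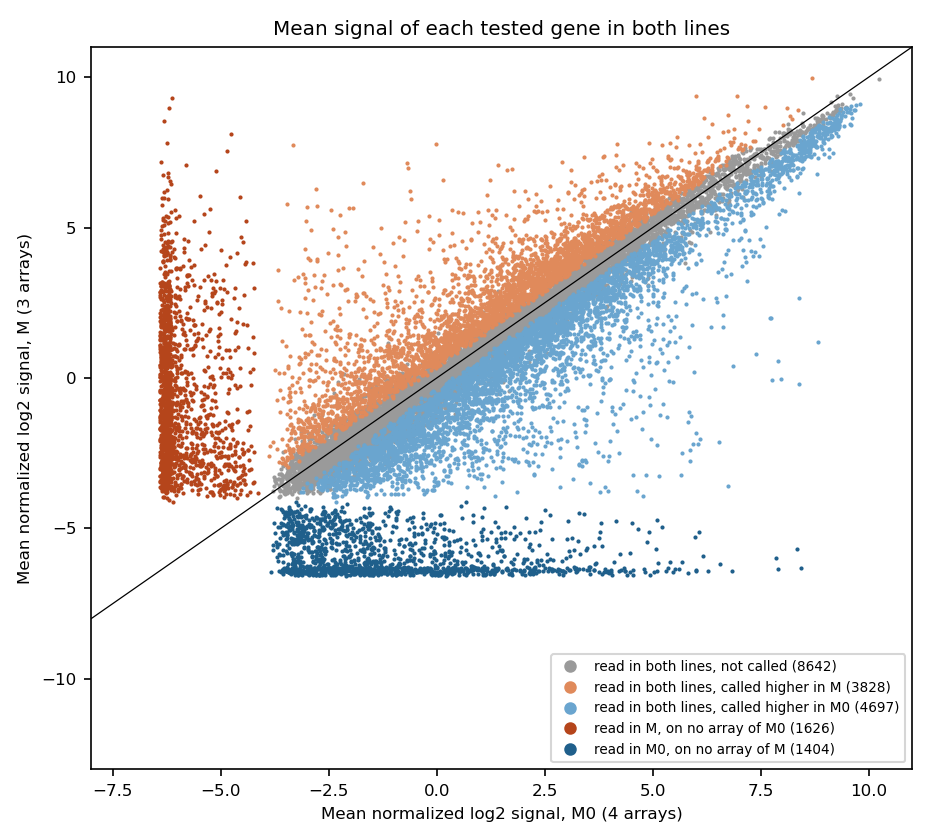
Mean normalized log2 signal in M (vertical axis, 3 arrays) against M0 (horizontal axis, 4 arrays), 1 point per tested gene, coloured by the calls, with the diagonal at equal signal; 2229 tested genes read on only some arrays of the dimmer line are left out. The genes read in 1 line and nowhere in the other, 1626 for M and 1404 for M0, form the bands at the left and at the bottom.

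Another 1626 genes were read on every M array and on no M0 array, and 1404 the other way round. For these the size of the difference has only a lower bound, written as at least N-fold: the mean of the bright line against, on each array of the dim line, the higher of the probe's own signal and the lowest signal among read probes. The largest bound in the direction of M belonged to *Mlana*, a melanosome protein, at 9.31, 9.19 and 9.39 on the M arrays and -6.18, -6.34, -6.47 and -5.57 on the M0 arrays, at least 10710.4-fold higher in M. *Tyrp1* (at least 6348-fold), *Ptgds*, the prostaglandin D synthase (at least 4728-fold), and *Gpnmb*, a melanosome glycoprotein (at least 3799.7-fold), followed. *Aebp1*, *Bace2*, *Chchd10*, *Cpe*, *Nckap1* and *Gm10639* completed the 10 largest, with bounds down to 1832-fold. *Nckap1* is the scaffold of the WAVE complex in most tissues, and its blood cell relative *Nckap1l* was 9.15-fold higher in M0 with its brightest probe, while its other probe was read in M0 and on no M array. In the direction of M0 the largest bound was that of *Tmsb4x*, an actin monomer binder, at 8.60, 8.53, 8.26 and 8.31 on the M0 arrays and -6.21, -6.31 and -6.41 on the M arrays, at least 6732-fold. It was followed by *Emilin2*, a matrix glycoprotein (at least 6354-fold), *F2r*, the thrombin receptor (at least 4651-fold), *Ifitm1*, an interferon-induced membrane protein (at least 4546-fold), and *Spns2*, a sphingosine phosphate exporter (at least 2223-fold). *Plac8*, *Nfe2*, *Galnt6*, *Syce2* and *Csf2rb2* had bounds down to 1248-fold.

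Among genes read in both lines, *Cited1*, a transcriptional co-regulator found in melanocytes, was furthest toward M, with 7.57, 7.72 and 7.96 on the M arrays and -3.02, -3.22, -3.40 and -3.70 on the M0 arrays, a log2 fold change of 11.08 (SE 0.25, adjusted p = 7.27e-19). *Sox10*, *Cryab* (a small heat shock protein, 536-fold), *Plxnb2* (a semaphorin receptor, 360.0-fold), *Fkbp6*, *Gpr137b*, *Gpr137b-ps*, *Gstm2*, *Crip2* and *Apoe* (the lipid carrier apolipoprotein E, 221-fold) came next. *Gpr137b* and its pseudogene copy are near-identical, and the array may not tell them apart. The furthest toward M0 was *Lyl1*, a haematopoietic bHLH factor, with 7.21, 6.80, 6.41 and 6.59 on the M0 arrays and -3.29, -3.97 and -3.50 on the M arrays, a log2 fold change of -10.34 (SE 0.52, adjusted p = 4.37e-13). It was followed by *Muc13*, a membrane mucin (468-fold), *Psmb9*, an immunoproteasome subunit, *Dok2*, an adaptor of blood cell tyrosine kinases (393-fold), *Rcn3*, *Slc39a4*, a zinc importer (335-fold), *S100a6*, *Arhgap45*, *Ankrd37* and *Mgst2*. The groups did not overlap for any of these 20, which the choice of the most extreme genes requires.

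Pigment genes were read in M and, for many members, not in M0. Of 15 listed genes of pigment enzymes and melanosome structure, 5 were read in both lines, and 4 of the 5 were called higher in M and 1 was not called (22.3% of all genes read in both were called higher in M), with a median log2 fold change of 6.53 against -0.13 over all genes read in both. *Tyr*, whose product tyrosinase carries out the rate-limiting step of melanin synthesis, read 4.02, 3.94 and 4.03 on the M arrays and -3.07, -2.78, -2.88 and -3.24 on the M0 arrays. The lines were far apart, by a log2 fold change of 6.99 (SE 0.24, adjusted p = 6.34e-16), and its other probe was read in M and on no M0 array. *Slc24a5*, a melanosomal cation exchanger, read 6.08, 5.68 and 6.03 in M and -0.47, -0.64, -0.71 and -0.56 in M0, 92.3-fold higher in M. *Mc1r*, the melanocortin receptor that raises pigment synthesis, was 18.6-fold higher in M, and it was plainly read in M0 too, between 0.48 and 1.88. *Tpcn2*, an endolysosomal channel, did not pass the test (log2 fold change 0.16, adjusted p = 0.445), and the lines overlapped.

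Another 7 pigment genes were read on every M array and on no M0 array. Beside *Mlana*, *Tyrp1* and *Gpnmb* these were *Bace2*, a protease that cuts the fibril protein PMEL (at least 2439.9-fold), *Slc45a2*, a melanosomal transporter (at least 1241-fold), *Gpr143*, the ocular albinism receptor (at least 515-fold), and *Oca2*, a melanosomal anion channel (at least 95.7-fold). *Pmel*, the fibril protein itself, read 9.14, 8.94 and 9.16 in M and -3.20, -4.04, -4.61 and -3.45 in M0, where 2 of 4 arrays were above background. *Dct*, dopachrome tautomerase, read 9.41, 9.25 and 9.15 in M with its brightest probe, which was read on no M0 array, and another probe, read on all arrays of both lines, gave a log2 fold change of 8.77. The 6 probes of the channel gene *Trpm1* disagreed in direction, since 5 of them were read in M and on no M0 array and the other, read in both lines, gave -4.43. The promoters of *Dct* and *Tyrp1* printed above are those of 2 genes in this group.

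Genes that carry and move lysosome-related organelles, which both cell types own, were mixed. Of 22 members read in both lines, 10 were called higher in M, 7 higher in M0 and 5 were not called, with a median log2 fold change of 0.35. *Rab38*, a GTPase that brings enzymes to melanosomes, read 6.95, 7.02 and 7.25 in M and 1.74, 1.46, 1.07 and 1.37 in M0, 50.7-fold higher. Its partner *Rab32* was 13.1-fold higher, and the motor *Myo5a* 9.92-fold higher. *Mlph*, which links this motor to melanosomes through RAB27A, was read in M only (at least 216-fold), and so was *Lyst* (at least 24.8-fold). *Unc13d*, which primes cytotoxic granules for release, read -2.54, -2.88 and -2.92 in M and 3.69, 3.47, 3.48 and 3.22 in M0, 75.8-fold higher in M0, and its partner *Stxbp2* was 2.57-fold higher. Of the related GTPases, *Rab27a* was 3.15-fold higher in M and *Rab27b* was read in M0 only (at least 22.1-fold).

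Of 21 listed transcription factors of melanocytes and the neural crest, 8 were read in both lines, and 3 were called higher in M, 1 higher in M0 and 4 not called. *Mitf*, the master regulator of melanocytes, read 6.64, 6.42 and 6.65 in M and 1.36, 0.95, 0.88 and 1.77 in M0, a 40.3-fold difference with no overlap. Its level in M0 was well above background, and *Mitf* is also known from mast cells and osteoclasts. The related factors *Tfeb* and *Tfe3* did not pass the test (log2 fold changes of 0.32 and -0.19), and the 4 probes of *Tfeb* ranged from -0.45 to 2.53. *Tfeb* was called higher in M with the slide as a block (0.38) and by the mean over its probes (0.62). *Sox10* read 5.67, 5.85 and 5.79 in M and -3.53, -3.28, -3.41 and -3.62 in M0, 599-fold higher (adjusted p = 4.03e-20). *Pax3* (at least 496-fold), *Tbx2* (at least 187-fold), *Etv1* (at least 43.4-fold) and *Snai2* (at least 17-fold) were read in M and on no M0 array. The ZEB pair split in these lines. *Zeb2* read 2.66, 2.80 and 3.02 in M and 1.03, 0.82, 0.67 and 0.35 in M0, 4.31-fold higher in M, while *Zeb1* read -6.46, -6.80 and -6.38 in M and 0.13, -0.14, 0.12 and 0.14 in M0 and was at least 20.5-fold higher in M0. *Etv5*, a factor downstream of growth factor signalling, was 11-fold higher in M0, with a wide spread over the M arrays (1.90, -0.70 and -0.13).

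Neural crest and glial genes lay toward M. Of 10 members read in both lines, 9 were called higher in M and 1 higher in M0, with a median log2 fold change of 2.77. *Nes*, the intermediate filament nestin, read 3.91, 4.23 and 4.73 in M and -3.52, -2.58, -2.83 and -3.23 in M0, 161-fold higher. *Plxnc1*, a semaphorin receptor, was 11-fold higher with no overlap. *S100b*, a calcium binder used to stain melanoma (at least 817-fold), *Dpysl3* (at least 144-fold) and *Fabp7*, a fatty acid binder (at least 132-fold), were read in M and on no M0 array. The exception was *Cnp*, a myelin phosphodiesterase, 2.13-fold higher in M0. *Ngfr*, *Gap43* and *Stmn2* were read on no array of either line.

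Receptor tyrosine kinases were called in both directions. *Met*, the receptor of hepatocyte growth factor, read 6.12, 5.76 and 5.93 in M and -6.11, -6.25, -6.33 and -6.23 in M0, at least 1041-fold higher in M, and *Ddr2* (at least 254-fold) and *Ephb4* (at least 13.0-fold) were also read in M only. *Kit*, which serves both melanocytes and blood progenitors, read -0.74, -0.89 and -0.48 in M and -5.94, -6.38, -6.49 and -6.39 in M0, so that it was read in the melanoma line (at least 10.5-fold higher) and on no array of the myeloid line. Its ligand *Kitl* was read in M only as well, at a bound of 2.59-fold. Of the 9 members read in both lines, 3 were called higher in M and 5 higher in M0. *Ddr1*, a collagen receptor, was 10.8-fold higher in M and *Fgfr1* 7.45-fold, a call that the mean over all its probes did not give, against 5.43-fold for *Igf1r*, 3.43-fold for *Axl* and 2.45-fold for *Insr* toward M0, the last lost under quantile normalization. *Ednrb*, the endothelin receptor of melanocytes, and *Egfr* were read on no array of either line.

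The haematopoietic transcription factors lay toward M0. Of 38 listed, 13 were read in both lines, and 10 were called higher in M0, each by more than 2-fold, and 3 were not called (27.4% of all genes read in both were called higher in M0). *Gata2*, a factor of progenitors and mast cells, read 6.07, 5.93, 5.99 and 5.73 in M0 and -2.62, -1.94 and -2.01 in M, 279-fold higher in M0. *Tal1*, a partner of the GATA factors, read 4.78, 4.46, 4.32 and 4.59 in M0 and -2.94, -3.51 and -3.24 in M, 218-fold higher. No array of M reached an array of M0 for either gene. *Myb* (61.3-fold), *Ikzf2* (71.8-fold), *Zfpm1* (30.6-fold), *Lmo2* (20.1-fold), *Runx1* (15.0-fold), *Cebpd* (9.67-fold) and *Cebpb* (5.55-fold) went the same way.

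Another 10 of the list were read in M0 and on no M array. *Nfe2*, a factor of platelet and red cell genes (at least 1509.8-fold), *Cebpe*, which drives late granulocyte genes (at least 1231-fold), *Gata1* (at least 952-fold), *Gfi1b* (at least 371-fold) and *Fli1* (at least 146-fold) had the largest bounds. *Gata1*, whose promoter is printed above, read 5.78, 5.66, 5.36 and 5.61 in M0 and -6.35, -6.37 and -6.38 in M. *Spi1*, which encodes PU.1, read -0.60, -1.01, -1.43 and -2.55 in M0 and -3.92, -6.27 and -6.42 in M, where 1 of 3 arrays was above background, and *Cebpa* and *Gfi1* were read on no array of either line. In the other direction 5 factors of the list were read in M and on no M0 array: *Mef2c* (at least 82.0-fold), *Meis1* (at least 22.8-fold), *Klf4* (at least 8.08-fold), *Klf2* (at least 4.12-fold) and *Bcl11a* (at least 3.29-fold). *Mef2c* read 1.99, 2.14 and 2.67 in M and -6.18, -6.34, -6.47 and -6.39 in M0, and it is known from neural crest and muscle as well as from blood.

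Leukocyte signalling genes were higher in M0 wherever a call was made. Of 15 members read in both lines, 13 were called higher in M0 and 2 were not called, with a median log2 fold change of -3.27 (-3.48 without M0 replicate 4, the lowest M0 array for 11 of the 15), and 16 more were read in M0 and on no M array. *Ptprc*, the gene of CD45, read 3.61, 3.36, 3.21 and 2.76 in M0 and -6.36, -6.39 and -6.53 in M, at least 184-fold higher in M0. *Rac2*, the blood cell RAC GTPase (at least 662-fold), *Vav1*, its exchange factor (at least 634-fold), *Laptm5* (at least 453-fold) and *Btk*, a kinase of myeloid and B cells (at least 398-fold), were likewise not read in M. *Coro1a*, an actin regulator of leukocytes, read 6.03, 5.98, 5.65 and 5.63 in M0 and -1.56, -1.45 and -1.36 in M, 155-fold higher, and *Lcp1* 5.64, 5.34, 5.10 and 5.01 and 0.80, -0.13 and 0.10, 32.2-fold higher. The members that were not called were *Arhgdib*, an inhibitor of small GTPases usually assigned to leukocytes, and *Fcer1g*, the signalling chain of Fc receptors. *Arhgdib* read 5.54, 5.25 and 5.44 in M and 5.53, 5.47, 5.12 and 5.53 in M0, a log2 fold change of -0.00098 (SE 0.18, adjusted p = 0.997), with overlapping arrays and a matching value from its other probe. *Fcer1g* read -1.26, -1.05 and -1.07 in M and -0.56, -0.82, -1.39 and -1.43 in M0 (log2 fold change -0.08, adjusted p = 0.808).

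Granule and oxidase genes were read in M0 in part. Of 26 listed, 4 were read in both lines, of which 3 were called higher in M0, 10 were read in M0 and on no M array, 8 on some arrays only, and 4 on none. *Mpo*, myeloperoxidase, read 2.32, 1.86, 1.48 and 2.46 in M0 (at least 76.2-fold higher than in M), and *Prtn3* was at least 21.9-fold higher. The eosinophil granule genes *Prg2* and *Epx* read 3.73, 3.47, 3.05 and 3.62 and 3.69, 3.25, 2.97 and 2.84 in M0, with bounds of 217-fold and 178-fold, and *Ms4a3*, a gene of granulocyte progenitors, a bound of 394-fold. *Srgn*, the granule proteoglycan serglycin, read 6.15, 5.94, 5.58 and 4.79 in M0 and -4.00, -4.18 and -6.38 in M, above background on 2 of 3 M arrays. Of the NADPH oxidase, *Ncf4* (at least 543-fold) and *Cyba* (54.1-fold) were higher in M0, while *Cybb*, its catalytic subunit, was read on no array of either line. The late granule genes *S100a8*, *Ltf* and *Fcnb* were not read in either, and *S100a9* was read on 1 of 4 M0 arrays. *Elane*, neutrophil elastase, did not pass the test (log2 fold change 1.09, adjusted p = 0.135), though it was called higher in M with the slide as a block (1.16) and without M replicate 3 (1.63). *Lyz1* (4.28-fold higher in M0) lost its call without any 1 of 5 arrays (M replicate 2 or 3, M0 replicate 1, 2 or 3) at log2 fold changes between -2.03 and -1.95, and it shares much of its sequence with *Lyz2*, so that their probes are uncertain. Of the mast cell and basophil list, 15 genes were on the array, and only 3 were read in both lines, with a median log2 fold change of -6.98. Of these 3, 2 were called higher in M0 and 1 was not called. Another 5 were read in M0 and on no M array, 5 on some arrays only and 2 on none. *Slc18a2*, a monoamine carrier (127-fold), *Gata2*, *Cma1*, a chymase (at least 52.8-fold), *Hdc*, histidine decarboxylase (at least 9.21-fold), and *Ms4a2*, the beta chain of the IgE receptor (at least 5.07-fold), were higher in M0. *Tpsb2*, a tryptase, did not pass the test (log2 fold change 0.16, adjusted p = 0.768).

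Of 14 haematopoietic cytokine receptors read in both lines, 4 were called higher in M, 4 higher in M0 and 6 were not called, against 22.3% and 27.4% of all genes read in both. The median log2 fold change was -0.11, and it turned to 0.040 without M replicate 1 and to 0.030 without scaling. *Il3ra* read 5.10, 4.57, 4.25 and 4.23 in M0 and 1.5, 1.27 and 1.79 in M, 8.1-fold higher in M0. The common beta chain was higher too, with 11.8-fold for *Csf2rb* and at least 1248-fold for *Csf2rb2*, although these copies are near-identical and 2 of the 3 probes of *Csf2rb* were read in M0 and on no M array. *Epor*, the erythropoietin receptor (20.5-fold), and *Il2rg*, the common gamma chain (21.3-fold), were also higher in M0. *Csf3r*, the G-CSF receptor, read 6.31, 6.64 and 6.53 in M and 6.44, 6.77, 7.39 and 7.33 in M0, and *Csf1r* 2.31, 2.21 and 1.04 and 1.74, 2.25, 2.11 and 2.03. Neither passed the test (adjusted p = 0.0524 and 0.766, with *Csf3r* called higher in M0 at -0.67 without M0 replicate 1 and at -0.56 without M0 replicate 2), and both were read on every array of the melanoma line. Toward M lay *Il11ra1* (16.3-fold), *Il10rb* (8.97-fold) and *Il6st*, the shared chain gp130, read in M only (at least 19.6-fold). *Flt3* and *Il7r* were read in neither.

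Of 27 Toll-like, Fc receptor and inflammasome genes on the array, 9 were read in both lines, of which 3 were called higher in M, 3 higher in M0 and 3 were not called, with a median log2 fold change of 0.61. Another 2 were read in M and on no M0 array, and 9 in M0 and on no M array, among them *Irak3* (at least 111-fold), the DNA sensor *Aim2* (at least 90.2-fold), the Fc receptor *Fcgr3* (at least 75-fold) and the lectin *Clec4e* (at least 43.4-fold). *Tlr4*, the endotoxin receptor, ran the other way, with 1.24, 0.97 and 0.65 in M and -1.73, -1.40, -1.75 and -2.29 in M0, 6.69-fold higher in the melanoma line, while its adaptor *Myd88* was 3.7-fold higher in M0. Of the chemokines and their receptors, 3 were read in both lines and called higher in M, 2 were read in M only and 5 in M0 only. The receptors *Cxcr4* (at least 48.1-fold), *Ccr2* (at least 55.6-fold) and *Cxcr2* (at least 31.5-fold) were among the 5. *Cxcl10* read 0.91, 1.56 and 1.64 in M and -2.25, -2.38, -2.96 and -2.23 in M0, 14.2-fold higher in M, and *Ccl5* was 4.47-fold higher, though its call was lost under normexp background correction (log2 fold change 1.17) and without M replicate 3 (1.87).

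Among 17 adhesion genes read in both lines, 7 were called in each direction. Of all genes read in both, 22.3% were called higher in M and 27.4% higher in M0. The beta 2 integrin group of leukocytes was higher in M0, with 7.54-fold for *Itgal* and 2.66-fold for *Itgam*, *Itgax* read in M0 only, and *Itgb2* at 2.47, 2.25, 1.93 and 1.26 in M0 and -3.79, -3.23 and -4.31 in M, above background on 2 of 3 M arrays. *Selplg*, the selectin ligand (at least 134-fold), and *Itga2b*, the platelet integrin (at least 228-fold), were read in M0 only. The matrix integrin *Itgav* was 3.57-fold and the common chain *Itgb1* 1.92-fold higher in M, and *Cd44*, the hyaluronan receptor, 4.82-fold. *Itga4* did not pass the test (3.63, 3.78 and 3.90 in M and 3.61, 3.57, 3.44 and 3.88 in M0). *Cdh2*, N-cadherin, read 3.97, 3.79 and 4.35 in M and -5.01, -3.53, -3.51 and -3.20 in M0, above background on 3 of 4 M0 arrays, and *Alcam* (at least 143-fold) and *Ncam1* (at least 66.1-fold) were read in M only. *Cdh1*, E-cadherin, was read in neither.

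Of 48 extracellular matrix genes, 14 were read in M and on no M0 array and 2 the other way, against 1626 and 1404 of all 45547 genes. Another 10 were read in both lines, with a median log2 fold change of -0.58. Of these 10, 4 were called higher in M, 4 higher in M0 and 2 were not called. *Serpinh1*, the collagen chaperone, read 5.99, 6.03 and 6.17 in M and -6.00, -5.57, -4.67 and -5.69 in M0, at least 1138-fold higher in M. *Agrn* (at least 332-fold), *Fbln1* (at least 159-fold), *Mmp14*, a membrane collagenase (at least 53.3-fold), and *Fn1*, fibronectin (at least 38.4-fold), were also read in M only. *Sparc*, a collagen-binding glycoprotein, read 8.71, 8.71 and 8.82 in M and -3.83, -3.65, -3.54 and -3.77 in M0, above background on 3 of 4 M0 arrays. *Col5a1*, read in both, was 9.38-fold higher in M0. The collagens *Col3a1* and *Col6a1* were read in neither.

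Cytoskeletal genes typical of attached cells that were read in both lines were called higher in M in 16 of 28 cases and higher in M0 in 5, with a median log2 fold change of 0.91. The shares over all genes read in both were 22.3% and 27.4%. *Lima1* (11.3-fold), *Cav2* (15.7-fold), *Anxa1* (9.56-fold), *Ctnnd1* (6.34-fold) and *Vim* (3.55-fold) were among the 16, and *Cnn3* (at least 385-fold) and *Cald1* (at least 332-fold), which bind actin, were read in M only. The opposite was true of *Tagln2*, transgelin 2, with 7.80, 8.30, 8.01 and 7.54 in M0 and 0.42, 0.53 and 0.70 in M, 164-fold higher in M0. *Lmna*, lamin A/C, differed by 2.1-fold, and its 3 probes gave log2 fold changes between 1.07 and 2.79.

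Genes of the YAP and TEAD pathway, the co-activators and DNA-binding factors that respond to cell attachment, lay toward M. *Yap1* read 5.33, 5.21 and 5.17 in M and -6.16, -6.35, -6.46 and -6.35 in M0, at least 642-fold higher in M, and its relative *Wwtr1* at least 169.6-fold. Of 11 members read in both lines, 8 were called higher in M and 1 higher in M0, with a median log2 fold change of 1.18, led by *Tead2* at 3.25, 2.76 and 2.78 in M and -3.25, -2.64, -2.71 and -3.32 in M0, 60.1-fold. The targets *Ccn1* (at least 42.5-fold) and *Ccn2* (at least 19.5-fold) and the inhibitor *Amot* (at least 27.9-fold) were read in M only. The kinase *Lats2* was 9.82-fold higher in M, while the kinase *Stk4* did not pass the test (log2 fold change -0.31), although its arrays did not overlap between the lines and quantile normalization called it higher in M0 (-0.38). *Ankrd1*, another common target, was read in neither.

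**Figure D3:**
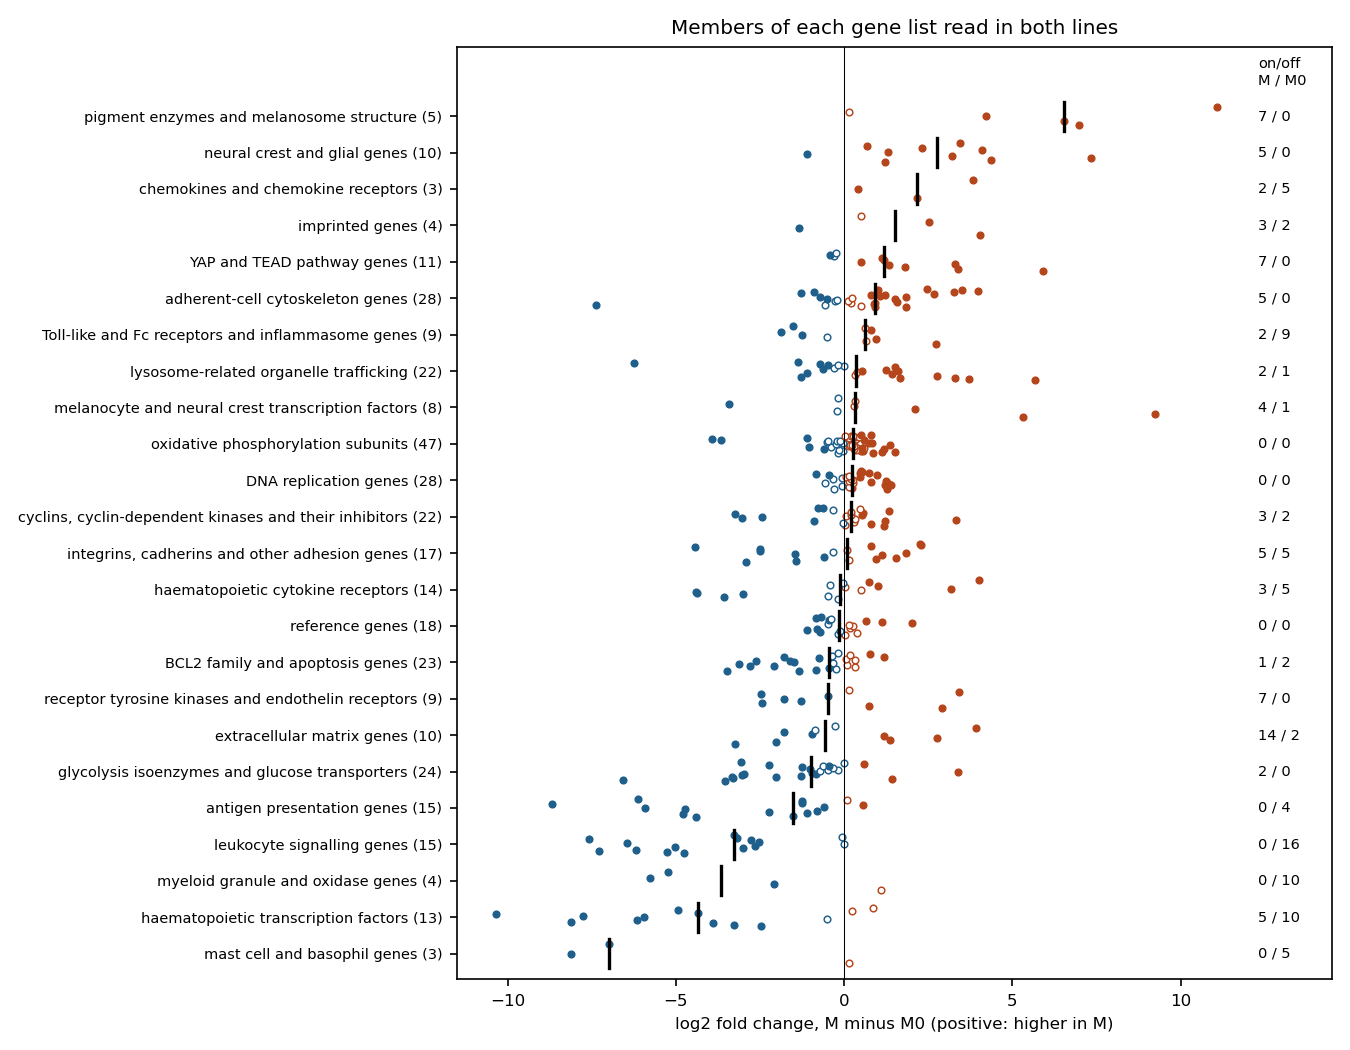
Log2 fold change, M minus M0 (horizontal axis), of every member read in both lines in each of 24 gene lists (number of such members in parentheses), filled where called at an adjusted p under 0.05, with a black bar at the list median; the figures at the right give members read in 1 line and nowhere in the other. Pigment genes lie highest (median 6.53) and the mast cell, haematopoietic and granule lists lowest (medians of -6.98, -4.33 and -3.66).

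Of 28 DNA replication genes, all read in both lines, 12 were called higher in M, 2 higher in M0 and 14 not called, and the median log2 fold change was 0.25. Over all genes read in both lines 49.7% were called, 22.3% higher in M and 27.4% higher in M0. *Mcm2* (2.43-fold) and *Pcna* (2.31-fold) were higher in M, and the markers of cycling cells *Mki67* (1.8-fold) and *Top2a* (1.36-fold) higher in M0, the latter a call lost without any 1 of 5 arrays (M replicate 1 or 2, M0 replicate 1, 2 or 3) at log2 fold changes between -0.48 and -0.34. Of the cyclins, their kinases and the inhibitors of these, 22 were read in both lines, of which 7 were called higher in M, 6 higher in M0 and 9 were not called, with a median of 0.21, and 3 were read in M only and 2 in M0 only. *Ccnd1* read 4.72, 3.92 and 3.94 in M and -6.13, -6.22, -6.35 and -6.25 in M0, at least 311-fold higher in M. *Ccnd2* was 2.27-fold higher in M, and *Ccnd3* did not pass the test (7.17, 6.94 and 7.17 in M and 7.36, 7.31, 6.98 and 6.58 in M0, overlapping), but it was called higher in M at 0.31 under quantile normalization. Among the kinases, *Cdk6* was 8.23-fold higher in M0, *Cdk2* 10.1-fold higher in M and *Cdk4* not called (log2 fold change 0.33), though *Cdk4* was called higher in M at 0.45 without M replicate 2, at 0.31 under quantile normalization and at 0.47 without scaling. The inhibitor *Cdkn2c* was 1.44-fold higher in M, a call lost without M replicate 3 (log2 fold change 0.43) or M0 replicate 3 (0.42). *Cdkn2a* read -0.45, -0.73, -1.69 and -0.86 in M0 and -6.44, -6.72 and -6.45 in M and *Cdkn2b* 0.98, 0.92, 0.50 and -0.35 and -6.38, -6.41 and -6.50, so neither was read on an M array, with bounds of 10.3-fold and 27.9-fold, and *Cdkn1a* was 5.38-fold higher in M0. *Rb1*, the retinoblastoma gene, was 9.46-fold higher in M0.

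Of the BCL2 family and apoptosis genes read in both lines, 12 of 23 were called higher in M0 and 2 higher in M. The shares over all genes read in both were 27.4% and 22.3%. *Bcl2*, which blocks mitochondrial cell death, read 5.58, 5.79, 5.63 and 5.19 in M0 and 2.12, 2.15 and 1.92 in M, 11.2-fold higher in M0. The killers *Bbc3* (8.8-fold) and *Bcl2l11* (6.88-fold) were higher in M0 too, although another probe of *Bcl2l11* gave -0.34, and the death receptor *Fas* was read in M0 only (at least 24.9-fold). *Mcl1* did not pass the test (log2 fold change -0.24, adjusted p = 0.415), and *Xiap*, a caspase inhibitor, was 2.28-fold higher in M.

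Antigen presentation genes lay toward M0. Of 15 members read in both lines, 13 were called higher in M0 and 1 higher in M, with a median log2 fold change of -1.51 against -0.13 over all genes read in both. M0 replicate 4 was the lowest M0 array for 9 of the 15, and without it the median was -1.58. Subunits of the immunoproteasome, which cuts peptides for class I molecules, stood far apart. *Psmb9* read 5.28, 4.95, 4.64 and 4.21 in M0 and -3.85, -4.04 and -3.88 in M, 413-fold higher (adjusted p = 5.68e-14), and *Psmb8* read 5.03, 4.57, 4.08 and 3.74 and -6.39, -6.38 and -6.50, at least 401-fold. The peptide transporters *Tap1* (26.3-fold) and *Tap2* (log2 fold change -5.91) were higher in M0 as well. The class I heavy chain *H2-K1* read 5.36, 4.97, 4.77 and 4.04 in M0 and 0.55, 0.24 and 0.34 in M, 21.2-fold higher in M0, but its probes gave -4.41 and -0.60, and the class I genes resemble each other. *H2-D1* differed by 2.84-fold. The light chain *B2m* differed much less, by 1.75-fold (adjusted p = 0.00562), with 5.40, 5.36 and 5.21 in M and 6.41, 6.60, 6.11 and 5.42 in M0, so that the lowest M0 array, replicate 4, lay next to the highest M array. *Nlrc5*, the activator of class I genes, read 0.35, 0.30, 0.36 and 0.18 in M0 and -4.02, -4.71 and -4.38 in M, above background on 1 of 3 M arrays. Of class II, *H2-Aa* and *H2-Eb1* were read in neither line, *Cd74* in M0 only (at least 2.84-fold), and the loading factor *H2-DMb1* was 69.9-fold higher in M0.

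Glycolysis genes and glucose transporters lay toward M0. Of 24 members read in both lines, 15 were called higher in M0 and 3 higher in M, with a median log2 fold change of -0.98. The shares over all genes read in both were 27.4% and 22.3%. The transporter *Slc2a3* read 8.06, 7.77, 7.56 and 6.15 in M0 and 0.93, 0.68 and 0.79 in M, 95.9-fold higher in M0, and *Slc2a1* 6.82, 6.71, 6.42 and 4.71 and 2.77, 2.38 and 2.72, 11.6-fold higher. The M arrays lay below all 4 M0 arrays for both, and M0 replicate 4 was the lowest of its line in each. That replicate was the lowest M0 array for 18 of the 24 genes, against 31.6% of all genes read in both, and its part in the result was not tested; without it the median was -1.21. It was also the lowest for 14 of 22 organelle trafficking genes, 8 of 14 cytokine receptors and 12 of 23 genes of the BCL2 list, whose medians without it were 0.29, -0.15 and -0.70. *Hk1* (9.83-fold), *Hk3* (10.1-fold), *Pfkl* (8.16-fold), *Pfkp* (7.91-fold) and *Pfkfb4* (8.3-fold), which encode hexokinases and phosphofructokinases, were higher in M0, but another probe of *Hk1*, read on 1 of 4 M0 arrays, gave 0.41. *Gapdh*, *Pgk1*, *Eno1* and *Pkm* were not called, but the last 3 were called higher in M0 without M0 replicate 4, at log2 fold changes of -0.64, -0.54 and -1.11. *Pgk1* was also called higher in M0 with the slide as a block (-0.54), under normexp background correction (-0.51) and with the percentile taken over probes read on all arrays (-0.55). *Ldha* was 1.36-fold higher in M0, a call lost without M replicate 2 or 3 or M0 replicate 1 or 2 and turned to 0.12 under quantile normalization, where *Gapdh* also turned, to 0.33, and was called. Some isoenzymes went the other way, since *Aldoc* was 10.4-fold higher in M and *Ldhb* (at least 484-fold) and *Eno2* (at least 13.5-fold) were read in M and on no M0 array.

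**Figure D4:**
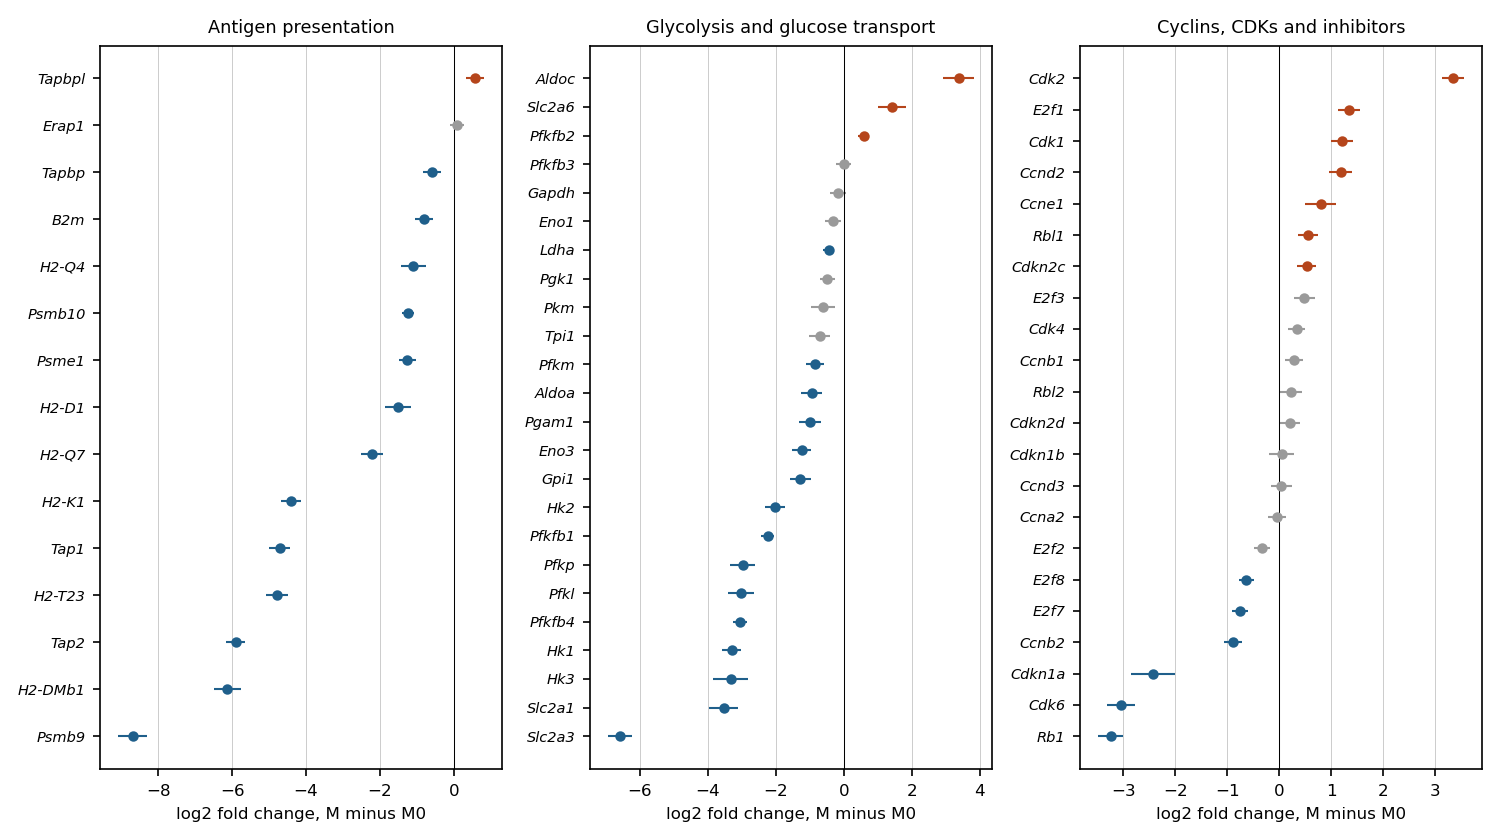
Log2 fold change, M minus M0 (horizontal axis), with its standard error (bars), of genes read in both lines in the lists of antigen presentation, glycolysis and glucose transport, and cyclins; red and blue points were called higher in M and in M0 at an adjusted p under 0.05, and grey points were not called. *Psmb9* and *Slc2a3* lie furthest toward M0 at -8.69 and -6.58, and *Aldoc* and *Cdk2* furthest toward M at 3.38 and 3.33.

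Subunits of oxidative phosphorylation were all 47 read in both lines, with 12 called higher in M, 5 higher in M0, 30 not called and a median log2 fold change of 0.26. The shares over all genes read in both were 22.3% higher in M and 27.4% higher in M0. The widest were isoforms known from muscle, *Cox7a1* at 1.98, 1.68, 1.32 and 0.64 in M0 and -2.62, -2.74 and -2.20 in M, 15.2-fold higher in M0, and *Cox6a2*, 12.6-fold higher in M0. *Sdhb* was 2.6-fold higher in M. Of 18 reference genes, 3 were called higher in M, 6 higher in M0 and 9 not called, so that 9 of 18 were called against 49.7% of all genes read in both. *Actb* read 9.16, 9.04 and 9.27 in M and 9.30, 9.23, 8.86 and 9.14 in M0, with a log2 fold change of 0.02 (SE 0.17) that became 0.51 and was called under quantile normalization, while *Gusb*, a lysosomal enzyme, was 4.06-fold higher in M and *Rplp0* 2.15-fold higher in M0. Of the imprinted genes, 4 were read in both lines (median 1.51), of which 2 were called higher in M, 1 higher in M0 and 1 was not called, while 3 were read in M only, 2 in M0 only, 8 on some arrays and 8 on none. *Igf2r*, the receptor that clears IGF2, read 2.67, 2.77 and 3.07 in M and -0.99, -1.04, -0.95 and -1.86 in M0, 16.5-fold higher in M, and *Sgce* was read in M only (at least 630.4-fold). The gene called higher in M0 was *Kcnq1ot1*, a long noncoding RNA (log2 fold change -1.35, adjusted p = 0.0455), a call lost with the slide as a block (-1.32), under normexp (-1.17), without scaling (-1.21) and without M replicate 1 or 3 or M0 replicate 3 or 4 (-1.53 to -0.85), and *Zrsr1* (at least 27.5-fold) and *Peg12* (at least 23.7-fold) were read in M0 only. *H19*, *Peg3* and *Snrpn* were read in neither line.

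The other melanoma lines and J365 gave another pair of the same cell types with no array shared with M and M0. There 14092 of 23422 genes were called (60.2%). Of the 8525 genes called between M and M0 and read in both, 8454 (99.2%) had the same direction in the mean of D, DB#1, DB#2 and DB#3 minus J365, 7695 (90.3%) were also called there, and 15 were called in the opposite direction. The lines are related by descent within the melanoma group, so these are not independent cell types. How M0 and J365 are related is not given in the labels. The difference between the pairs was itself tested, and 484 of 23753 genes (2.04%) were called, 177 of them among those read in M and M0.

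The genes with the largest called difference of the pairs, among those read on every array of all 7 lines, were chosen for that difference, and their values are a description. *Intu*, a planar polarity effector, read 0.20, -0.06 and -0.04 in M and -2.27, -2.35, -3.39 and -2.98 in M0, 6.89-fold higher in M, but -3.46 on the log2 scale in the other pair, where J365 averaged 3.49. *Ass1*, the argininosuccinate synthase that lets cells make arginine, read 4.04, 3.59 and 4.03 in M and -2.18, -1.62, -1.43 and -1.53 in M0, 47.7-fold higher in M, whereas the other pair differed by 0.12. J365 averaged 3.65 for *Ass1*, close to the melanoma lines. *Dlg3* was 1.8-fold higher in M, against a log2 fold change of 5.50 in the other pair. *Lgals3*, galectin 3, read 5.67, 4.86 and 5.25 in M and 4.30, 4.33, 3.79 and 2.21 in M0, 3.04-fold higher in M, against 6.01, and its call between M and M0 was lost without M replicate 1 or M0 replicate 4. *Tnnt1*, a troponin, was 99.2-fold higher in M0 (log2 fold change -6.63 against -2.18). *Krba1* and *Exoc3l4* turned their direction, from -2.01 to 2.85 and from -1.95 to 2.51, and *Havcr2*, an immune receptor, from 0.92 to -2.08. *Gcm2* and *Fcer1g* were not called between M and M0 and lay at -3.83 and -3.13 in the other pair. *Rab38*, a gene of the organelle list, was read on all M0 arrays and on no J365 array, so its difference in the other pair has no exact size.

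**Figure D5:**
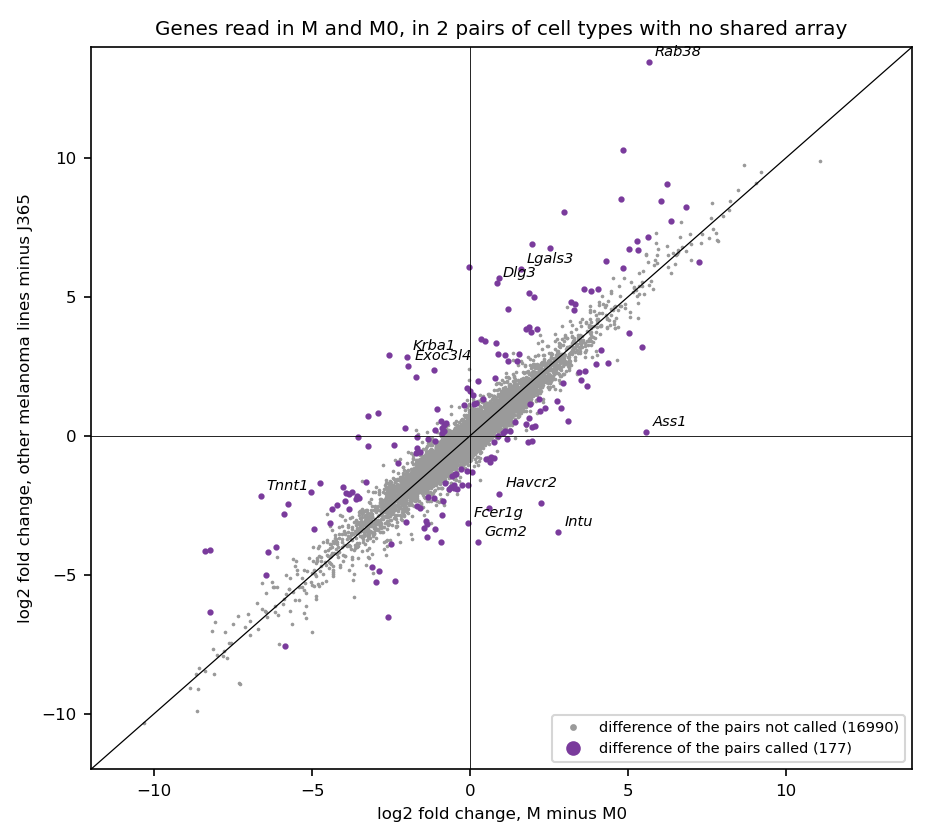
Log2 fold change of genes read in M and M0: M minus M0 (horizontal axis) against the mean of D, DB#1, DB#2 and DB#3 minus J365 (vertical axis), 1 point per gene, with the diagonal at equal values. Purple points are the 177 genes whose difference of the pairs was called, with the 10 largest of the genes read in all lines and *Rab38* named; *Ass1* and *Rab38* lie off the diagonal in opposite directions, and *Rab38* was not above background on any J365 array.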

How the data were processed

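Total RNA of cultured cells had been labelled with cyanine 3 and hybridised to 1-colour Agilent mouse arrays. The deposited intensity values were made by the authors with Feature Extraction 10.7.3.1 (submitters' processing notes), and gProcessedSignal, the background-corrected intensity, was used. The deposited series table holds the same intensity values, equal in 1511424 of 1511424 cells, and no scaling between arrays. Control spots and outlier spots were left out, spots of a probe were averaged, and log2 signal was centred on each array's 75th percentile. The probe with the highest mean signal over all 24 arrays, most of them of melanoma lines, stood for a gene. All 24 arrays were fitted with 1 term per line (limma 3.58.1, R 4.3.3, lmFit and eBayes, 17 residual degrees of freedom), the M minus M0 contrast was read for genes marked well above background on every array of at least 1 line, and p-values were adjusted by Benjamini-Hochberg at 0.05. The fit was tested on simulated data. Normexp used gMedianSignal, since the tables hold no mean signal. The methods name no test for the arrays. The number of arrays limits the precision. No 2 arrays were identical, no column came from another series, and no probe was saturated. For some genes of several probes, values of other probes read in either line are given too. The rest are given by 1 probe each, and their other probes may differ. The accessions of 32917 of 56488 probes matched a gene of the RefSeq table (22881 symbols), a probe without a match kept its array name, and both kinds count as genes here. Genes were named as the 10 most different in each direction among genes read in both lines, the 10 with the largest bounds, the 5 with the largest difference of the pairs in each direction, and members of fixed lists. Members and lists were chosen with earlier results of these data known. Some members of the lists are counted but not reported by name here.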

Additional observations from a re-analysis of the deposited data

Results flagged for a closer look

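Among the 282 genes named in the text, 1 of the 4 M0 arrays stood apart from the others in 22, by a gap that passed Dixon's 95% limit for 4 samples, and chance flags about 1 in 20 groups. M0 replicate 4 was the array in 10 of the genes: *Arhgap45* (normalized log2 signal 5.41), *Cebpd* (2.97), *Gstm2* (-3.53), *Igf2r* (-1.86), *Lyz1* (-2.30), *Lyz2* (-6.26), *Mgst2* (4.32), *Ms4a2* (-0.61), *Pfkp* (4.32) and *Tfe3* (3.95). M0 replicate 1 stood apart for *C1qa* (-5.84), *Ccn2* (-6.05), *Cd8a* (-5.82), *Cebpa* (-4.86), *Gpr137b* (-2.99) and *Top2a* (5.66). M0 replicate 3 stood apart for *Arhgdib* (5.12), *Ccnd2* (4.73), *Il11ra1* (0.72), *Mlph* (-5.59) and *Trpm1* (-4.26), and M0 replicate 2 for *Zeb1* (-0.14). *C1qa*, *Ccn2*, *Cd8a*, *Cebpa*, *Mlph* and the probe used for *Trpm1* were not well above background on any M0 array.

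For 24 of the named genes the difference between M and M0 was itself different from that between the other melanoma lines and J365 (limma, adjusted p under 0.05). On the log2 scale, M minus M0 less the other pair came to 6.24 for *Intu*, 5.45 for *Ass1*, 4.09 for *Gcm2*, 3.06 for *Fcer1g*, 3.00 for *Havcr2*, 2.75 for *Gm10639*, 1.93 for *Rab32*, 1.89 for *Fgfr1*, 1.48 for *Tlr4* and 1.16 for *Plxnc1*. It came to -7.78 for *Rab38*, -4.86 for *Krba1*, -4.65 for *Dlg3*, -4.46 for *Exoc3l4*, -4.45 for *Tnnt1*, -4.41 for *Lgals3*, -4.28 for *Rcn3*, -4.12 for *S100a6*, -4.11 for *Itgax*, -3.29 for *Cyba*, -1.89 for *Arhgap45*, -1.86 for *Cox7a1*, -1.63 for *Hk1* and -1.23 for *Igf2r*. *Rab38* was not read in J365, *Gm10639* not in M0, and *Itgax* not in M, J365 or D, so their values rest on signals not above background and are not exact sizes. The 10 genes with the largest differences among those read in all lines, 5 in each direction, were chosen for it.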

How the results depend on the processing

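Both lines have few arrays, the labels do not say whether these are separate cultures, and each cell type stands for 1 line, so line and cell type cannot be told apart. Probes near background limit the size of large differences. Under limma's treat against a 2-fold change, the genes called between M and M0 fell to 5598 (2880 higher in M, 2718 higher in M0), those read in both lines to 2208, those of the other lines to 6004 and the differences of the pairs to 160, which were 307 at an adjusted p under 0.01. The other 106 of 113 counts recomputed stayed within 1.5 times. With 1 array left out in turn, the calls ranged from 11568 to 12664 (5566 to 6018 higher in M, 5913 to 6646 higher in M0), from 7397 to 8346 among genes read in both, from 13948 to 14209 in the other lines and from 352 to 499 for the differences. The slide as a block gave 14493 calls between M and M0, 10176 among genes read in both. Leaving D replicate 3 out of the fit gave 13546 calls, 9236 among genes read in both, and 676 differences of the pairs. No scaling moved the median of genes read in both from -0.13 to 0.01. The replicate numbers did not pair the arrays (same-number correlations of -0.08, 0.16 and -0.20, against 0.33 to 0.64 for arrays on 1 slide), and a fit with the replicate block gave 12946 calls, 8744 among genes read in both, and called *Pgk1* (-0.64), *Eno1* (-0.50) and *Pkm* (-0.93). A count of differences from the arrays of M and M0 alone cannot be computed, and values within a slide have no test.

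Medians of the gene lists stayed within the spread of the arrays in 437 of 480 recomputed values, and the cause of the others was not tested, except that with no filter on dim probes further members enter. Normexp gave 5.58 (pigment), -3.68 (haematopoietic factors), -2.89 (granule), -6.07 (mast cell) and 1.17 (chemokines). No filter gave 11.29 (pigment), 1.80 (melanocyte factors), 3.21 (neural crest), 1.17 (receptor tyrosine kinases), -3.35 (haematopoietic factors), -6.18 (leukocyte), -4.11 (granule), -1.46 (mast cell), -1.26 (Toll-like), 0.69 (matrix), 3.69 (YAP), -2.22 (antigen presentation), where the receptor tyrosine kinases (-0.47 with the filter), Toll-like (0.61) and matrix (-0.58) medians turned, as did the chemokines, to -0.22, and the imprinted genes, to -0.077. The mean over probes gave 0.90 (melanocyte factors), 3.65 (neural crest), -1.27 (receptor tyrosine kinases), -3.45 (haematopoietic factors), -5.01 (leukocyte), -0.46 (adhesion) and -0.78 (BCL2). Within slide 1 the medians were 0.10 (organelle trafficking), 0.074 (melanocyte factors), -4.14 (leukocyte), 0.59 (cytoskeleton) and, turned, -0.045 (cyclins); within slide 2, 0.63 (melanocyte factors) and 0.13 (cytokine receptors); within slide 3, 1.51 (chemokines), 0.014 (cyclins), -0.78 (BCL2) and -2.07 (antigen presentation). The YAP median was 1.08 under quantile normalization and 1.32 without scaling, where the cyclins gave 0.35. *Ldha* turned to 0.12 under quantile normalization. With 1 array left out in turn, medians ranged over 0.087 to 0.69 (melanocyte factors) and 1.11 to 1.26 (YAP).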

Other observations

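Genes read in both lines leaned by chromosome. On chromosome 6 the median log2 fold change over 502 genes was 0.63, with 69.1% of them higher in M than in M0, against a median of -0.019 and 49.1% over the 10930 genes with a chromosome. The same chromosome had a median of 0.60 in the other melanoma lines minus J365, and within the 3 slides the median of M minus M0 was 0.48, 0.61 and 0.64. On chromosome 19 the median over 402 genes was -0.49, with 27.4% higher in M, -0.42 in the other pair and -0.55, -0.48 and -0.48 within slides. Chromosome 11, the chromosome with the next highest median, stood at 0.22 over 946 genes (59.8% higher in M) and 0.17 in the other pair. Chromosomes were taken from the RefSeq table, and all are medians with no test.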
